A study of Homo sapiens with 12 samples.

Results

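Expression of 10 genes of the BCL2 family was followed in Huh7 cells treated with a graphene oxide drug carrier. The genes were MCL1, BCL2L1, BAX, BAK1, BID, BAD, BBC3, PMAIP1, BCL2L11 and BIK, chosen by symbol among the 63677 genes of the count table, and all 10 were found there and passed the filter on low counts. Huh7 is an established human hepatocellular carcinoma cell line. Cells of this single line were left untreated in medium alone or were treated for 6 h with graphene oxide (GO) at 400 µg/mL, with GO carrying the ginsenoside Rg3 (GO-Rg3) at 400 µg/mL, or with GO carrying Rg3 and the anthracycline doxorubicin (GO-Rg3-DOX) at 100 µg/mL. Each of the 4 groups had 3 samples, and no group received Rg3 without GO. Cells given free doxorubicin were not analysed here. GO-Rg3-DOX was given at a lower dose than GO-Rg3, so the 2 groups differ in both the drug and the dose and were not tested against each other. The labels number the replicates without saying that they came from separate cultures, so p-values measure the spread between these samples, which may be technical.

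Proteins of the BCL2 family decide whether the outer mitochondrial membrane is opened during apoptosis. BAX and BAK1, the effectors, form the pores that release cytochrome c into the cytosol, where it starts the caspase cascade. MCL1 and BCL-XL, the product of BCL2L1, hold the effectors in check, and the BH3-only proteins BID, BAD, PUMA (BBC3), NOXA (PMAIP1), BIM (BCL2L11) and BIK either block the guardians or activate the effectors. In hepatocytes and liver cancer, BCL-XL and MCL1 are known as the main survival proteins of the family.

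Samples held 27802871 to 38877420 counts assigned to genes. The cells expressed liver tumour transcripts, with ALB at group means of 2601 to 6144 CPM (normalized counts scaled to library size) and AFP at 5836 to 14300.1 CPM. The 3 leukocyte markers, PTPRC and CD3E among them, summed to 2 to 9 counts in every sample, and the endothelial gene CDH5 had 1 to 13 counts, with no call in any comparison although its GO-Rg3-DOX samples (12 to 13 counts) lay above the untreated ones in CPM. PECAM1, also endothelial, was listed at 0 in all 12 samples but has no exon length in the annotation used here, so this 0 says little about its expression. Mitochondrially encoded transcripts took 5.31% to 6.28% of the counts in untreated cells and 6.89% to 7.42% after GO-Rg3, but 12.1% to 24.1% with GO and 12.8% to 19.4% with GO-Rg3-DOX. GO replicate 1 (24.1%) stood apart from the other GO samples, also on the second principal component, and results that rest on it are given without it as well. GO-Rg3-DOX replicate 1 (19.4%) also lay above the other samples of its group (13.9% and 12.8%). The 3 fibroblast markers (COL1A1, COL1A2 and PDGFRB) rose after GO-Rg3-DOX, from a sum of 3.63 to 4.96 CPM in untreated samples to 10.3 to 14.05 CPM, and 6 of 7 hepatoma markers rose with them. Of all genes tested, 25.5% rose there by the test described below. After GO, 3 of the 7 hepatoma markers fell, namely AFP (log2 -1.07), ALB (-0.67) and TF (-0.40), and none rose, where 15.4% of all genes fell and 12.1% rose. The part of these shifts in the results below was not tested.

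In the GRCh37 annotation, the build of the deposited counts, the anti-apoptotic genes lie at chr1:150533371-150552214 (MCL1) and chr20:30252255-30311792 (BCL2L1), both on the minus strand. Of the effectors, BAX lies at chr19:49458072-49465055 on the plus strand and BAK1 at chr6:33540324-33548070 on the minus strand. The BH3-only genes BID (chr22:18216904-18257536), BAD (chr11:64037302-64052176) and BBC3 (chr19:47724079-47736023) lie on the minus strand. PMAIP1 (chr18:57567228-57571537), BCL2L11 (chr2:111876955-111926021) and BIK (chr22:43506756-43525718) lie on the plus strand. The annotation release behind the deposited counts was not given, so the exons counted may differ from those described here. The annotation used here, GENCODE v44 lifted to GRCh37, gives these protein-coding genes 951 (BIK) to 6742 (BCL2L11) exonic bases. Of these bases, 404 of BAD (23.65%) are shared with GPR137 on the opposite strand and 727 of BCL2L11 (10.78%) with the long non-coding RNA MIR4435-1HG on the opposite strand. MCL1 shares 328 bases (5.27%) with ADAMTSL4-AS1 on the same strand, which had 0 to 9 counts in any sample. BAK1 shares 91 with GGNBP1 and BBC3 80 with MIR3191, both on the opposite strand and at 0 to 2 counts. The strand setting of the counting was not given in the sources used here, so reads in these stretches may not be separable.

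The promoters of 4 members are shown because these genes take the main places in the results: BCL2L1 as the most abundant member, BAX as the effector that rose, and BBC3 and PMAIP1 as stress-induced BH3-only genes that moved under different treatments. RefSeq windows of 250 bases before a transcription start were available here for 8 of the 10 genes (14 windows, from a table on GRCh38.p14), and the 4 shown each matched GRCh37 exactly once. Each is printed 5′ to 3′ on the strand of its gene, up to the first exonic base of the GRCh37 annotation. Capitals mark matches on either strand to core motifs. A GC box is spelled GGGCGG, and a CCAAT box is spelled as it is named. The TATA box searched for was TATAAA. An E-box is here the palindrome CACGTG.
BCL2L1: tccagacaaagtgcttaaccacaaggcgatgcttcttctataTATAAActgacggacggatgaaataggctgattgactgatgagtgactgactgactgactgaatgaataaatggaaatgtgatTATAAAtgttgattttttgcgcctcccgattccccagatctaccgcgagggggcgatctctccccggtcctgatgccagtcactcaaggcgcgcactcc
BAX: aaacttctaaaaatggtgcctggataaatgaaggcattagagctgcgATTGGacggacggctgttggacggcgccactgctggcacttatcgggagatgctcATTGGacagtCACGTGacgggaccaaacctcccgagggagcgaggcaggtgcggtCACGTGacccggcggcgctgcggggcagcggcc
BBC3: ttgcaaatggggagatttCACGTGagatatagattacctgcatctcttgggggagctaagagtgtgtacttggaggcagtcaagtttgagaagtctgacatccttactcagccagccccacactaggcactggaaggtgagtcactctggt
PMAIP1: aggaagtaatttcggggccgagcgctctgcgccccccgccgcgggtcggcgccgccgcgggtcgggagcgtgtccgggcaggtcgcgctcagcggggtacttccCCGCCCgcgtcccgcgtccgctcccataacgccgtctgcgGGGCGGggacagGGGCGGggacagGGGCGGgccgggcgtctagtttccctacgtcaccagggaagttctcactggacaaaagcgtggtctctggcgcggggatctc

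These stretches are chr20:30311793-30312016 (BCL2L1, minus strand), chr19:49457882-49458071 (BAX, plus strand), chr19:47736024-47736174 (BBC3, minus strand) and chr18:57566978-57567227 (PMAIP1, plus strand). They differ in make-up. The BCL2L1 stretch holds 2 TATA boxes and no other match, the BAX stretch 2 CCAAT boxes and 2 E-boxes, the BBC3 stretch 1 E-box and the PMAIP1 stretch 4 GC boxes. Within its whole window of 250 bases, BAX had 4 E-boxes and 1 GC box beside its CCAAT boxes, and BBC3 had 1 CCAAT box beside its E-box. Over all 35116 windows of this length, 42.6% held a GC box, 32% a CCAAT box, 10.7% a TATA box and 6.34% an E-box. Searches for GTAAACA (FOXO) and TGATGNAA (CHOP-ATF4), present in 2.98% and 3.14% of all windows, found no match in these 4 windows. Among the members' windows not shown, that of BCL2L11 held 1 FOXO match, at position -223 from the start. A match is a stretch of letters only, and binding was not measured.

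Untreated cells set the baseline of the family. Scaled to exonic length, BCL2L1 was the most abundant member at 130.1 ± 4.34 CPM per kb (SD, n = 3) and made up 56.3% of the summed level of the 10 genes. MCL1 followed at 32.95 ± 0.347 CPM per kb. The effectors BAX (25.7 ± 0.555) and BAK1 (20.1 ± 0.636 CPM per kb) and the BH3-only gene BID (15.6 ± 0.826 CPM per kb) came next. The remaining BH3-only genes were low, from BCL2L11 at 3.64 ± 0.168 and PMAIP1 at 1.41 ± 0.131 down to BIK at 0.723 ± 0.259, BBC3 at 0.433 ± 0.0682 and BAD at 0.423 ± 0.104 CPM per kb. Along this order, neighbouring members did not overlap between samples except for BIK with BBC3 and BBC3 with BAD. The order and the share depend on the length used, here all exonic bases of a gene. That length exceeds the longest transcript unevenly, with 2587 against 1358 bases for BAX, 4420 against 2495 for BID and 2212 for both in BAK1. Places of members at similar levels may therefore change with another length. BCL2 itself, the founding member, had 0 to 6 counts in all 12 samples, which is below the filter. HRK, BCL2A1, BCL2L10 and BCL2L15 also failed the filter, with at most 16 counts in any sample.

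**Figure D1:**
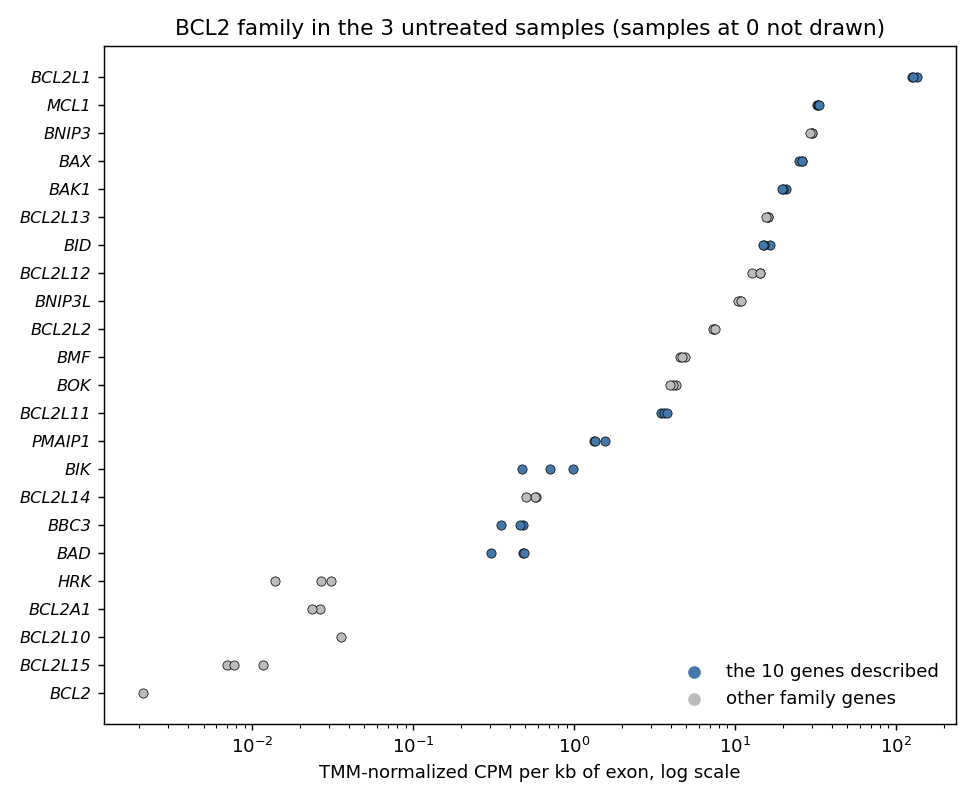
Level of 23 BCL2 family genes in untreated Huh7 cells, in CPM per kb of exon on a log axis. Each point is 1 of the 3 samples (samples at 0 are not drawn), blue for the 10 genes described and grey for others. BCL2L1 lies highest at 130.1 CPM per kb, and BCL2 lies lowest.

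GO alone shifted 4 of the 10 genes past the test, where 27.6% of the 17092 genes tested passed (12.1% higher and 15.4% lower). The test was the quasi-likelihood test of edgeR at an adjusted p below 0.01, by Benjamini-Hochberg over all genes. The BH3-only genes BBC3 and BIK rose and were also differentially expressed, with an absolute log2 fold change above 1, as were 6.47% of all genes. The BH3-only genes BID and BCL2L11 fell. The median log2 fold change of the 10 genes was 0.12, and that of all genes 0.01. In 6 of the 10 genes the GO and untreated samples did not overlap, as in 58.5% of all genes.

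After GO-Rg3, none of the 10 genes passed the test against untreated cells, where 0.164% of all genes did. An unadjusted p below 0.05 was reached by 1 member, BID, and DESeq2 called 0 of the 10. None was differentially expressed, as 0.0585% of all genes were, and in 3 of the 10 the samples did not overlap (25.8% of all genes). Their median log2 fold change was 0.01, against -0.00 over all genes. Compared directly with GO at the same dose and time, GO-Rg3 moved 3 members past the test, where 13.6% of all genes passed (7.33% higher and 6.25% lower). BBC3 and BIK were lower and differentially expressed (2.77% of all genes), and BID was higher. The samples did not overlap in 5 of the 10, as in 39% of all genes. GO-Rg3 against untreated and GO against untreated share the untreated samples.

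GO-Rg3-DOX moved 6 of the 10 genes past the test, where 56% of all genes passed (25.5% higher and 30.5% lower), so the members' share was close to the background. The samples did not overlap in 8 of the 10, as in 75.3% of all genes. Both anti-apoptotic genes, MCL1 and BCL2L1, fell, and so did BIK. The effector BAX and the BH3-only genes BAD and PMAIP1 rose. Of these, MCL1, BCL2L1, BIK and BAD were differentially expressed, as were 30.8% of all genes. The median log2 fold change of the members was -0.20, and that of all genes -0.06. Without a composition factor, by library totals alone, the median of all genes moved to -0.47. The members' calls went from 3 higher and 3 lower to 1 higher and 5 lower. Over all genes the calls went from 4350 higher and 5214 lower to 2152 and 7293, so they tilted the same way. BAX and PMAIP1 were then no longer called, and BAK1 and BBC3 were called lower. With an offset for GC content 8 members were called, 3 higher and 5 lower, where 4546 of 16622 genes were called higher and 5095 lower. Library totals also moved the median of all genes to -0.11 for GO and to 0.12 for GO-Rg3 against GO, where the members' calls were then 2 higher and 2 lower. All genes then gave 1223 higher and 2780 lower for GO, and 1209 and 489 for GO-Rg3 against GO. In bulk RNA, fewer cells of a kind and less RNA per cell cannot be told apart.

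**Figure D2:**
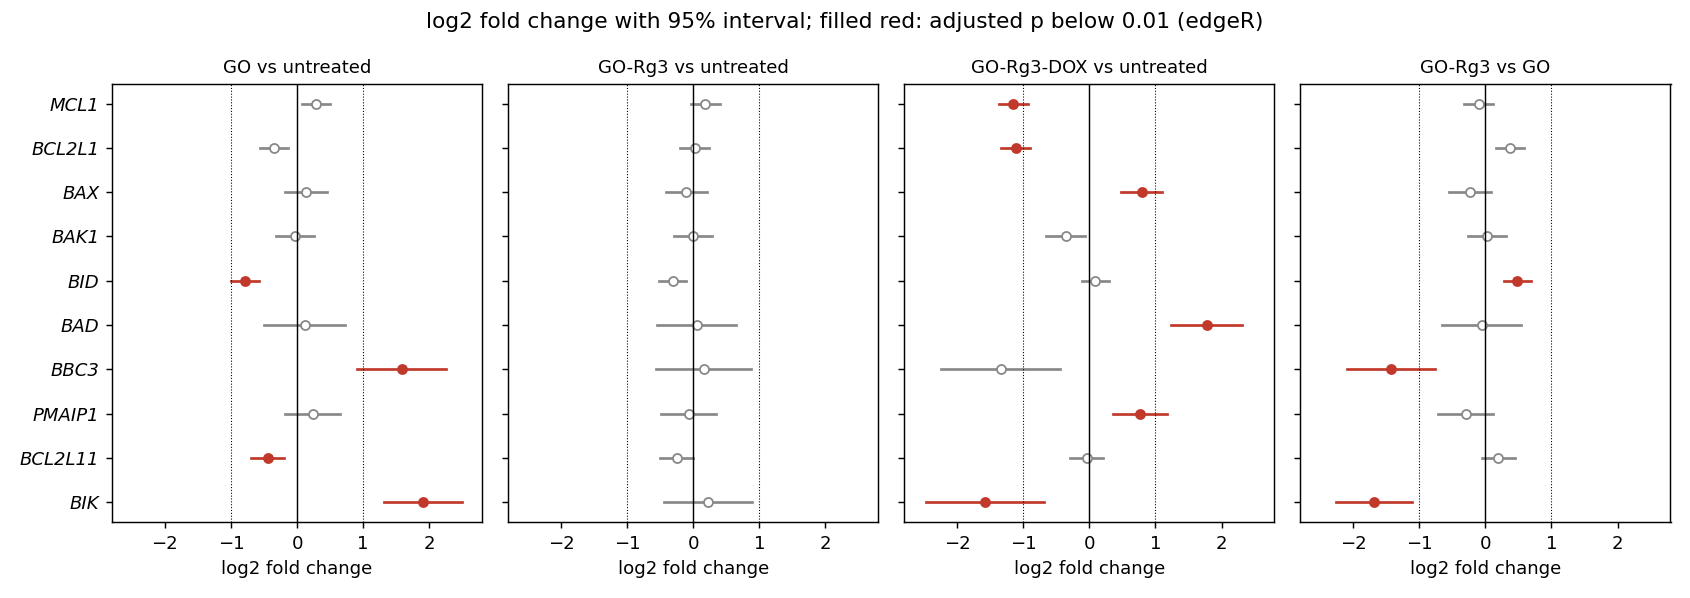
Log2 fold change of each of the 10 genes with its 95% interval in the 4 comparisons, from edgeR. Filled red points passed an adjusted p of 0.01, and dotted lines mark an absolute log2 fold change of 1. The GO-Rg3 panel has no filled point, and the GO-Rg3-DOX panel has 3 on each side.

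Among the anti-apoptotic genes, MCL1 encodes a short-lived guardian of the outer membrane. Untreated samples had 203, 206 and 207 CPM, and GO-Rg3-DOX samples 79.8, 91.5 and 106 CPM. All 3 GO-Rg3-DOX samples lay below every other sample of the study. The mean was 205 ± 2.16 CPM in untreated and 92.5 ± 13.2 CPM in treated cells (SD, n = 3), and MCL1 fell with a log2 fold change of -1.15 (SE 0.10, adjusted p = 1.6e-07, edgeR). GO samples had 253, 249.9 and 247 CPM, all above the untreated samples, but the difference of 0.29 on the log2 scale (SE 0.10) missed the threshold (adjusted p = 0.034). GO-Rg3 samples spread from 219.6 to 253 CPM and overlapped those of GO (-0.10 on the log2 scale, adjusted p = 0.48). They also lay above all untreated samples, by 0.18 on the log2 scale, which did not pass (SE 0.10, adjusted p = 0.48, edgeR).

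BCL2L1, whose main product BCL-XL binds both effectors and BH3-only proteins, had 567, 533 and 539 CPM in untreated samples. After GO-Rg3-DOX it had 259, 249 and 252 CPM. These samples lay within a narrow range below all others. From 546 ± 18.2 CPM it fell to 253 ± 4.93 CPM (log2 -1.11, SE 0.10, adjusted p = 2e-07, edgeR). With GO alone the values were 453, 415 and 419 CPM, all below the untreated samples. That difference was -0.35 on the log2 scale (SE 0.10) and did not pass the test (adjusted p = 0.012). GO-Rg3 samples ran from 481 to 637 CPM, overlapped the untreated samples and lay above those of GO (0.37 on the log2 scale, SE 0.10, adjusted p = 0.015).

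Of the effectors, BAX resides in the cytosol of healthy cells and moves to mitochondria when activated. Untreated samples had 67.4, 64.9 and 67.4 CPM. After GO-Rg3-DOX they had 139, 105 and 101.7 CPM, above every other sample. BAX rose from 66.6 ± 1.43 to 115 ± 20.7 CPM, a 1.73-fold change (log2 0.79, SE 0.15, adjusted p = 0.00023, edgeR). The highest sample was replicate 1, and without it the log2 fold change was 0.65 (adjusted p = 0.0016). By library totals alone it was 0.36 (adjusted p = 0.015), which did not pass. BAX overlapped the untreated samples after GO (62.5 to 88 CPM) and after GO-Rg3 (53.2 to 72.1 CPM). GO-Rg3 differed from GO by -0.24 on the log2 scale (SE 0.15, adjusted p = 0.25).

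BAK1, the effector that sits in the outer mitochondrial membrane, passed the test in none of the 4 comparisons with TMM scaling. It had 43.1 to 46 CPM in untreated samples, 40.4 to 49.7 after GO, 35.8 to 52.8 after GO-Rg3 and 31.9 to 39.3 CPM after GO-Rg3-DOX. The GO-Rg3-DOX samples lay below the untreated ones without overlap. Their log2 fold change was -0.36 (SE 0.14, adjusted p = 0.03, edgeR). By library totals alone it was -0.78 (adjusted p = 6e-05) and with the GC content offset -0.82 (adjusted p = 9e-08), both past the test. The 95% interval of the change ran from -0.32 to 0.26 for GO and from -0.29 to 0.29 for GO-Rg3. GO-Rg3 differed from GO by 0.03 on the log2 scale (adjusted p = 0.91).

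BBC3 and BIK, both low in untreated cells, were the members with the largest fold changes after GO. BBC3 encodes PUMA, which binds all anti-apoptotic members. Its counts ranged from 9 to 153 over the 12 samples. Levels were 1.53, 1.47 and 1.13 CPM in untreated samples and 5.99, 3.13 and 3.40 CPM after GO. Every GO sample exceeded every untreated sample. BBC3 rose 3.00-fold (log2 1.58, SE 0.32, adjusted p = 0.0011, edgeR). GO replicate 1 was the highest, and without it the log2 fold change was 1.25 (adjusted p = 0.0037). After GO-Rg3 the counts were 77, 25 and 64 (2.08, 0.804 and 1.65 CPM), overlapping the untreated samples. BBC3 was lower with GO-Rg3 than with GO, by -1.42 on the log2 scale (SE 0.31, adjusted p = 0.0041, edgeR). This call was lost in 3 of 6 fits that left out 1 sample, namely GO replicate 1 (-1.09, adjusted p = 0.015) and GO-Rg3 replicates 2 (-1.14, adjusted p = 0.015) and 3 (-1.49, adjusted p = 0.017). It was also lost with the 6 samples of the comparison alone. After GO-Rg3-DOX the counts were 20, 9 and 13 (0.824, 0.323 and 0.496 CPM), below every untreated sample. The log2 fold change of -1.34 (SE 0.42) narrowly missed the threshold (adjusted p = 0.011).

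BIK, a BH3-only protein of the endoplasmic reticulum, had the same order of group means. Untreated samples had 17, 21 and 40 counts (0.450, 0.671 and 0.942 CPM), and GO samples 92, 87 and 72 counts (3.60, 2.33 and 2.04 CPM). The groups were well apart. BIK rose 3.76-fold after GO (log2 1.91, SE 0.28, adjusted p = 1e-04, edgeR), and without GO replicate 1 the log2 fold change was 1.65 (adjusted p = 0.00021). With GO-Rg3 the counts were 28, 24 and 35 (0.757, 0.771 and 0.901 CPM), within the range of untreated cells. The difference between GO-Rg3 and GO was -1.69 on the log2 scale (SE 0.27, adjusted p = 0.00058) and stayed past the threshold whichever sample was left out. After GO-Rg3-DOX the counts were 4, 9 and 5 (0.165, 0.323 and 0.191 CPM). BIK fell in this group (log2 -1.58, SE 0.42, adjusted p = 0.0036), but the call was lost in 3 of 6 fits that left out 1 sample, namely untreated replicate 3 (adjusted p = 0.023) and GO-Rg3-DOX replicates 1 (0.021) and 3 (0.019). BBC3 and BIK had fewer than 10 counts in some samples and left the test when 10 counts were required in every sample.

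BID links death receptors to mitochondria once caspase-8 has cut it. It had 73, 67.5 and 66.1 CPM in untreated samples and 41.9, 41.2 and 36.5 CPM after GO. The groups did not overlap. The log2 fold change after GO was -0.79 (SE 0.10, adjusted p = 3e-05, edgeR), and without GO replicate 1 it was -0.82. GO-Rg3 samples had 56.5, 53.9 and 56.7 CPM and took an intermediate place, above all GO samples and below all untreated ones. Against GO the rise was 0.48 on the log2 scale (SE 0.10, adjusted p = 0.0024), lost without GO replicate 3 (0.016) or GO-Rg3 replicate 3 (0.014). That call was also lost with the 6 samples of the comparison alone. Against untreated the difference of -0.31 did not pass (adjusted p = 0.14). GO-Rg3-DOX samples, at 65.6, 76 and 78.2 CPM, overlapped the untreated samples.

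BCL2L11 encodes BIM, which binds all anti-apoptotic members and can activate BAX and BAK1 directly. Its levels were 23.4, 24.6 and 25.7 CPM in untreated samples and 15.9, 19.2 and 18.9 CPM after GO. These groups did not overlap. The fall of 0.44 on the log2 scale (log2 -0.44, SE 0.12, adjusted p = 0.0069, edgeR) passed in only 1 of 6 fits that left out a sample. It was lost without any of the 3 untreated samples (adjusted p from 0.016 to 0.033) and without GO replicates 1 (0.02) or 3 (0.017). MIR4435-1HG, which shares exonic bases with it, had 31.5 ± 0.570 CPM without treatment and 29.7 ± 5.84 CPM after GO. GO-Rg3 samples had 20.3, 20.4 and 21.4 CPM, above all GO samples and below all untreated ones. The difference from GO was 0.20 on the log2 scale and did not pass (SE 0.12, adjusted p = 0.22, edgeR). That from untreated was -0.25 and did not pass either (SE 0.12, adjusted p = 0.37). GO-Rg3-DOX samples had 20.4 to 27.3 CPM, overlapping untreated cells.

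BAD, a BH3-only protein kept inactive by phosphorylation in cells with growth factor signals, was the member with the largest rise after GO-Rg3-DOX. It had 31, 26 and 22 counts in untreated samples (0.820, 0.831 and 0.518 CPM) and 50, 70 and 73 counts after GO-Rg3-DOX (2.06, 2.52 and 2.78 CPM). All 3 treated samples were above the other 9 samples. BAD rose 3.43-fold (log2 1.78, SE 0.25, adjusted p = 1.7e-05, edgeR), and it passed in 6 of 6 fits that left out 1 sample. GPR137, which overlaps it on the opposite strand, went from 12.6 ± 0.622 to 38 ± 5.08 CPM in the same samples, and its part in the BAD counts was not tested. BAD overlapped the untreated samples after GO (0.744 to 0.792 CPM) and GO-Rg3 (0.450 to 0.973 CPM), with 95% intervals of the log2 fold change from -0.49 to 0.72 and from -0.54 to 0.65. Between GO-Rg3 and GO the difference was -0.06 on the log2 scale (adjusted p = 0.91).

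PMAIP1 encodes NOXA, which binds MCL1 with preference. Its counts ranged from 70 to 161 over the 12 samples. Untreated samples had 2.91, 3.42 and 2.94 CPM, and GO-Rg3-DOX samples 3.83, 5.79 and 6.10 CPM. Every GO-Rg3-DOX sample was higher in CPM than every untreated one, with replicate 1 the lowest of them. PMAIP1 rose 1.70-fold (log2 0.77, SE 0.19, adjusted p = 0.0023, edgeR). The call was lost in 4 of 6 fits that left out 1 sample, namely untreated replicates 1 and 3 and GO-Rg3-DOX replicate 2 (each adjusted p = 0.012) and GO-Rg3-DOX replicate 3 (0.013). By library totals alone the log2 fold change was 0.36 (adjusted p = 0.19). GO samples ran from 2.74 to 4.13 CPM and GO-Rg3 samples from 2.62 to 3.22 CPM, both overlapping untreated cells. GO-Rg3 and GO differed by -0.30 on the log2 scale (SE 0.19, adjusted p = 0.27).

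**Figure D3:**
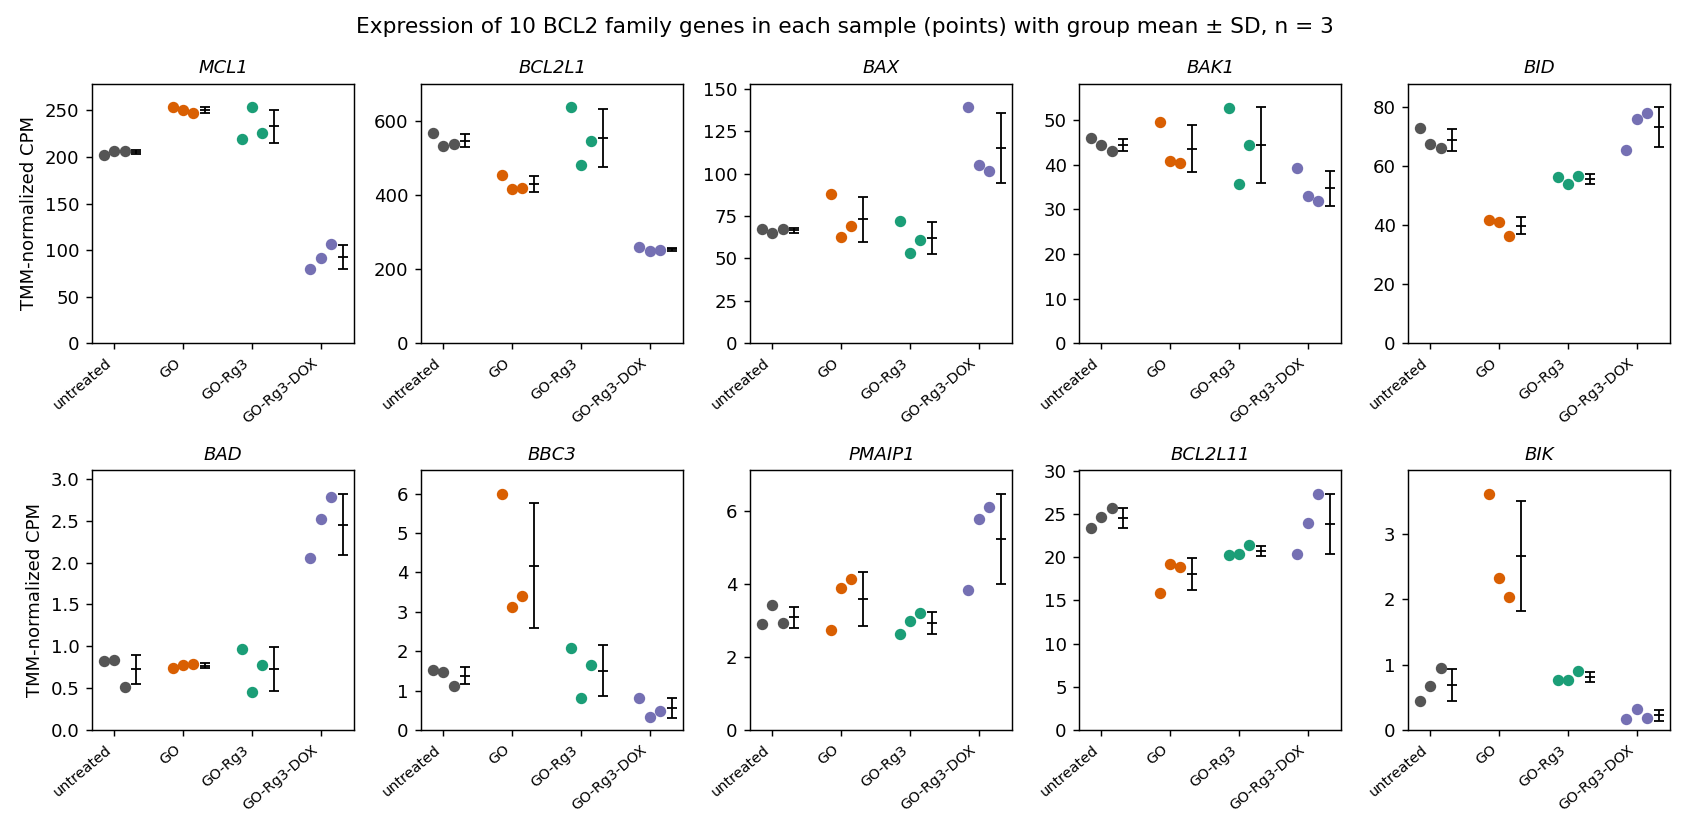
Level of each of the 10 genes in TMM-normalized CPM (linear axes from 0, a scale for each gene). Points are the 3 samples of a group, and the black bar is the mean ± SD. MCL1 and BCL2L1 are lowest and BAX and BAD highest after GO-Rg3-DOX, while BBC3 and BIK are highest after GO.

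Taken per length, the make-up of the family shifted with GO-Rg3-DOX. MCL1 and BCL2L1 held 70.7%, 70.4% and 70.6% of the summed level of the 10 genes in untreated samples and 44.5%, 47.8% and 49% after GO-Rg3-DOX. The effectors held 19.7% to 19.9% in untreated samples and 34.1% to 42.8% after GO-Rg3-DOX, and the BH3-only genes 9.51% to 9.74% and 12.7% to 16.8%. The samples of these groups did not overlap for any of the 3 roles. Within its group, GO-Rg3-DOX replicate 1 had the highest effector share (42.8%) and the lowest anti-apoptotic and BH3-only shares (44.5% and 12.7%). The shares are parts of the same total, so a lower share of any role raises that of the rest. A higher BH3-only share therefore need not mean a higher level of these genes. BID, the most abundant of these genes in untreated cells, went from 15.6 ± 0.826 to 16.6 ± 1.52 CPM per kb after GO-Rg3-DOX. That difference did not pass the test (log2 0.09, adjusted p = 0.42, edgeR), while BAD and PMAIP1 rose and BIK fell. In GO samples the anti-apoptotic share was 66.3% to 69.7%, below all untreated samples, and in GO-Rg3 samples it was 72.5% to 74%, above them. The summed level itself was 231 ± 5.29 CPM per kb in untreated cells, 208 ± 13.9 after GO, 232 ± 24.1 after GO-Rg3 and, with DOX, 159.8 ± 6.55 (SD, n = 3). These are shares of transcripts and say nothing of protein amounts.

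The ratio of BCL2L1 to BAX, both per length, was 5.06 ± 0.132 in untreated cells, 3.67 ± 0.465 after GO, 5.52 ± 0.0705 after GO-Rg3 and, with DOX, 1.38 ± 0.204. Ratios within a sample do not depend on the scaling of the library, but a shift with GC content can change them. With the GC content offset, the log2 fold changes after GO-Rg3-DOX were -1.53 for BCL2L1 and -0.97 for MCL1. Without it they were -1.11 and -1.15. The ratio of BAX to BAK1 was 1.28 ± 0.0484 in untreated cells and 2.83 ± 0.173 after GO-Rg3-DOX, so the 2 effectors did not change alike. BCL2L1 over MCL1 stood at 3.95 ± 0.173 in untreated cells, 4.12 ± 0.645 after GO-Rg3-DOX and 2.54 ± 0.0980 after GO, where no sample reached the untreated range.

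**Figure D4:**
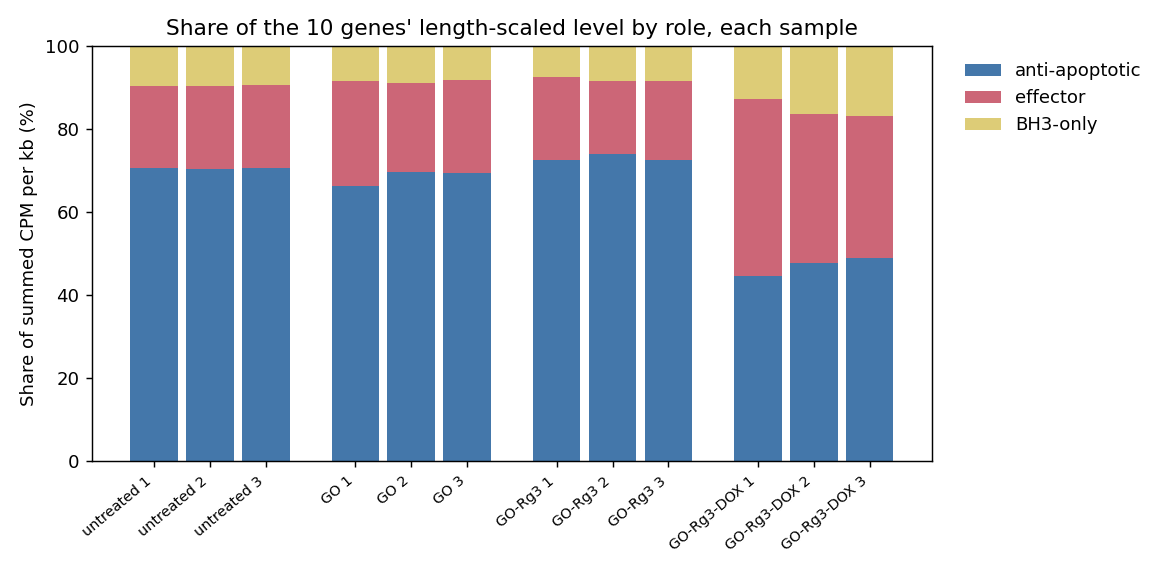
Share of the summed CPM per kb of the 10 genes held by anti-apoptotic genes, effectors and BH3-only genes, 1 bar per sample (bars sum to 100%). The anti-apoptotic share is 70.4% to 70.7% in untreated samples and 44.5% to 49% after GO-Rg3-DOX.

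Fold changes moved with the GC content of transcripts over all genes. Across 16622 genes, which are not independent replicates and share the libraries, Spearman's correlation of GC content with the log2 fold change was 0.43 for GO, 0.20 for GO-Rg3 and 0.36 for GO-Rg3-DOX against untreated, and -0.43 for GO-Rg3 against GO. The members span 36.65% (PMAIP1) to 69.66% GC (BBC3). With an offset for GC content, 8 of the 10 genes passed after GO, namely MCL1, PMAIP1, BBC3 and BIK higher and BCL2L1, BAK1, BID and BCL2L11 lower. Of the 16622 genes, 2308 were called higher and 2798 lower in that fit. BBC3 stood at a log2 fold change of 0.97 (adjusted p = 0.002, edgeR) in that fit. For GO-Rg3-DOX, BAX went from 0.79 to 0.33 (adjusted p = 0.0052) and BAD from 1.78 to 0.97 (adjusted p = 0.0011). BBC3 also moved down, from -1.34 to -2.31 (adjusted p = 3.5e-06), as did BAK1, from -0.36 to -0.82 (adjusted p = 9e-08). PMAIP1 moved up, from 0.77 to 1.31. MCL1 (-0.97) and BCL2L1 (-1.53) remained past the test.

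**Figure D5:**
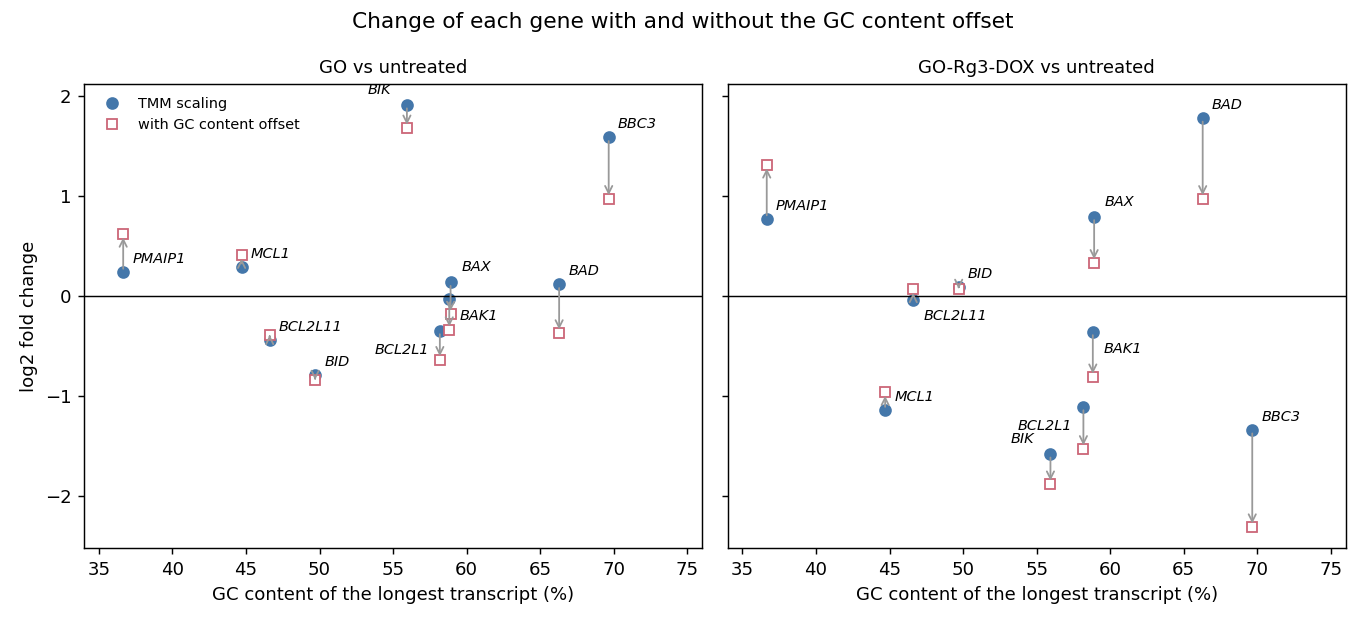
Log2 fold change of each of the 10 genes against the GC content of its longest transcript, for GO and for GO-Rg3-DOX against untreated. Circles are values with TMM scaling, squares those with an offset for GC content, and arrows join both. Genes of high GC content move down (BBC3 from 1.58 to 0.97 after GO) and PMAIP1, of 36.65% GC, moves up.

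Of 13 other genes of the family and its relatives, 8 passed the filter. After GO, 3 of the 8 rose and 0 fell, against 27.6% of all genes called. With the GC content offset 2 rose and 3 fell, where 2308 of 16622 genes rose and 2798 fell. The 3 that rose were the mitophagy receptors BNIP3L, from 44.6 ± 1.01 to 115 ± 14.9 CPM (log2 1.37, adjusted p = 6.3e-07, edgeR), and BNIP3 (log2 0.62, adjusted p = 0.00035), and the effector relative BOK (log2 0.73, adjusted p = 0.0091). BOK had 23.1 CPM in GO replicate 1 and 15.5 and 16.4 CPM in the other GO samples, and without that replicate its change was 0.53 and not called (adjusted p = 0.041). The BOK call was lost in 5 of 6 fits that left out 1 sample, all but that without GO replicate 2 (adjusted p from 0.013 to 0.041), by library totals alone (0.59, adjusted p = 0.021) and with the GC content offset (0.21, adjusted p = 0.072). BNIP3L and BNIP3 were lower with GO-Rg3 than with GO, by -1.32 and -0.84 on the log2 scale. GO-Rg3 against untreated called 0 of the 8 by edgeR (1 at an unadjusted p below 0.05, BMF, which DESeq2 called). After GO-Rg3-DOX, 1 rose (BCL2L12, log2 0.69, but 0.27 and not called by library totals alone, adjusted p = 0.089) and 3 fell, against 56% of all genes called. The largest fall was that of BMF, a BH3-only gene, from 25.7 ± 1.01 to 7.90 ± 1.27 CPM (log2 -1.70, adjusted p = 2.9e-08), followed by BCL2L14 (-0.84) and the anti-apoptotic BCL2L2 (-0.56). The BCL2L14 call was lost without untreated replicate 1 or 2 or GO-Rg3-DOX replicate 1 or 3 (adjusted p from 0.01 to 0.019). The medians of the 8 were 0.22 for GO, -0.09 for GO-Rg3, -0.41 for GO-Rg3-DOX and -0.27 for GO-Rg3 against GO, where those of all genes were 0.01, -0.00, -0.06 and -0.02.

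Downstream of the membrane, 18 genes of cytochrome c release and the caspase cascade were all tested. After GO, 2 rose and 4 fell, 6 of 18 against 27.6% of all genes. The initiator caspase gene CASP10 (log2 1.03) and CASP2 (0.38) rose, and the CASP2 call was lost by library totals alone (adjusted p = 0.058) and without any of the 3 untreated samples or GO replicate 3 (0.012 to 0.018). The falls included CYCS (-0.74), which encodes cytochrome c and has many pseudogenes, and the channel gene VDAC3 (-0.57). GO-Rg3 against GO called 2 higher, among them CYCS (0.45), and 1 lower, CASP10 (-0.72), against 13.6% of all genes. The CYCS call was lost without GO replicate 2 or 3 or GO-Rg3 replicate 2 or 3 (adjusted p from 0.012 to 0.035). It was also lost with the GC content offset (0.23, adjusted p = 0.041, edgeR). With the 6 samples of the comparison alone it was lost as well (0.44, adjusted p = 0.052). The CASP10 fall was lost by library totals alone. Against untreated, GO-Rg3 called 0 of the 18 (5 at an unadjusted p below 0.05, and 0 by DESeq2). After GO-Rg3-DOX, 4 rose and 7 fell, 11 of 18 where 56% of all genes were called. The largest rises were in AIFM1 (0.56), CASP10 (0.45) and VDAC1 (0.36). By library totals alone these were 0.14, 0.04 and -0.07, and none was called. CASP10 also lost its call without untreated replicate 3 (adjusted p = 0.011), and VDAC1 without any of the 3 untreated samples or GO-Rg3-DOX replicate 1 (0.014 to 0.019). The falls included the nuclease gene DFFB (-2.10) and the caspase inhibitor XIAP (-1.28, from 42.4 ± 0.746 to 17.5 ± 0.465 CPM). The medians of the 18 were -0.18 for GO, -0.07 for GO-Rg3, -0.22 for GO-Rg3-DOX and 0.11 for GO-Rg3 against GO, where those of all genes were 0.01, -0.00, -0.06 and -0.02.

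Known regulators of the members, 18 genes with transcription factors and ubiquitin enzymes among them, were examined likewise. After GO, 5 rose and 1 fell, 6 of 18 against 27.6% of all genes. FOXO3, a transcription factor that can induce BBC3 and BCL2L11, rose from 18.9 ± 0.0867 to 50.7 ± 1.84 CPM (log2 1.42, adjusted p = 4.8e-07, edgeR), with RELA (0.96) and ATF3 (0.65). MARCHF5, a mitochondrial ubiquitin ligase, fell (-0.59). In GO-Rg3 against GO, FOXO3 (-1.03), DDIT3 (-0.78) and CDKN1A (-0.63) were the largest of 4 falls, and MARCHF5 (0.48) was the single rise, 5 of 18 against 13.6% of all genes. CDKN1A had not risen past the test after GO (0.05, adjusted p = 0.69, edgeR). For GO-Rg3 against untreated, FOXO3 stood at 0.39, DDIT3 at -0.40 and CDKN1A at -0.58 (adjusted p = 0.092, 0.26 and 0.018, edgeR), none past the test. The MARCHF5 rise was lost without GO replicate 3 or GO-Rg3 replicate 2 or 3 (adjusted p from 0.013 to 0.019), and the CDKN1A fall by library totals alone (-0.49, adjusted p = 0.025). The MARCHF5 rise was also lost with the GC content offset. With the 6 samples of the comparison alone, the MARCHF5, DDIT3 and CDKN1A calls were all lost. Against untreated, GO-Rg3 called 0 of the 18 (4 at an unadjusted p below 0.05, and 2 by DESeq2). GO-Rg3-DOX moved 13 of 18, 4 up and 9 down, where 56% of all genes were called. ATF3 (1.77) and the MCL1 ubiquitin ligase HUWE1 (0.85, but 0.42 and not called by library totals alone, adjusted p = 0.015) rose most, and FOXO1 (-2.09), ATF4 (-1.68) and the ubiquitin ligase gene MDM2 (-1.36) fell most. CDKN1A, a cell cycle inhibitor, had a log2 fold change of 0.18 there (SE 0.10, adjusted p = 0.12). The medians of the 18 were 0.15 for GO, 0.10 for GO-Rg3, -0.49 for GO-Rg3-DOX and -0.12 for GO-Rg3 against GO, beside the same medians of all genes.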

How the data were processed

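RNA was sequenced from 12 samples of Huh7 cells (4 groups of 3, assigned by GEO's labels). The authors used a stranded mRNA kit and the GRCh37 genome. The deposited values are raw counts per Ensembl gene for 63677 genes, made with featureCounts per the submitters' processing notes and not normalized. The annotation release and the strand setting were not given in the sources used here. One gene name had become a date in the file and was read as MARCHF5 by its identifier.

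The 17092 genes that reached 10 counts in 3 or more samples were scaled by the TMM method and fitted with edgeR 4.0.16 in R 4.3.3. A single quasi-likelihood model took all 12 samples, with no block for the replicate number. P-values were adjusted by Benjamini-Hochberg over the genes tested in each of 4 comparisons. Genes passed at an adjusted p below 0.01 and were differentially expressed if the absolute log2 fold change was also above 1. Counts simulated for GO against untreated, with 100 genes changed by 1 and 100 by 2 on the log2 scale, gave back 80% and 98% of these changes, and 1 unchanged gene was called among the 16360 fitted. All simulated samples were drawn from the mean untreated profile, and the changed genes were not among the lowest. They held no shift with GC content, no shift in mitochondrial share and no replicate effect, so these rates need not hold for the real samples. CPM values are TMM-normalized, and values per kb divide them by the union exon length in GENCODE v44 lifted to GRCh37. Low counts carry at least counting error, and reads were not collapsed by molecular identifiers. Shares, ratios and medians over genes are descriptions with no test.

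All 10 members were named in every comparison. From each other list, up to 3 of the largest rises and falls past the test were named in each comparison. Named after their values were seen were CDKN1A after GO and GO-Rg3-DOX, and BMF, FOXO3, DDIT3 and CDKN1A after GO-Rg3. A few listed genes and 1 motif are not reported here by name, though the genes stay in the counts and medians of their lists. The members and lists were chosen with earlier results of these data known. Alternatives were RLE size factors, library totals, removal of mitochondrially encoded genes, no filter (35604 genes), 10 counts in every sample (13706 genes), DESeq2 1.42.0, a replicate block, a loess offset (span 0.5) for GC content alone or together with the block, fits on the 6 samples of a comparison, leaving out each sample, and an adjusted p of 0.05. Tables and figures were made with Python 3.11.15, pandas 2.3.3 and matplotlib 3.10.9.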

Additional observations from a re-analysis of the deposited data

How the results depend on the processing

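The replicate numbers of the labels went with a weak similarity between samples. Deviations from the group means correlated at -0.02 to 0.25 between samples of the same number (mean 0.09 over 18 pairs). The mean over the other 36 pairs was -0.05, but it is tied to the first because deviations within a group sum to 0. Over all genes, a block for the replicate number raised the calls after GO from 2074 higher and 2639 lower to 2601 and 3190. For GO-Rg3 against GO they went from 1253 and 1068 to 1810 and 1561, and for GO-Rg3-DOX from 4350 and 5214 to 4617 and 5477. What the numbers stand for was not tested. With the replicate block the members past the test were 5 for GO, 0 for GO-Rg3, 8 for GO-Rg3-DOX and 4 for GO-Rg3 against GO, in place of 4, 0, 6 and 3. BCL2L1 then passed after GO (-0.35, adjusted p = 0.0041) and in GO-Rg3 against GO (0.36, adjusted p = 0.0051), and BAK1 (-0.37, adjusted p = 0.0047) and BBC3 (-1.36, adjusted p = 0.00088) after GO-Rg3-DOX. Regulators called for GO-Rg3 went from 0 to 1.

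For GO, the members past the test numbered 2 when 10 counts were required in every sample, which removes BBC3 and BIK, and 8 with the GC content offset, alone or with the block. Differentially expressed members went from 2 to 0 and to 1 under the same settings. Other family genes called for GO went from 3 higher and 0 lower to 5, which were 3 higher and 2 lower under DESeq2 and at an adjusted p of 0.05, and 2 higher and 3 lower under both GC offsets. For GO-Rg3, 1 other family gene and 1 regulator were called in place of 0 without a filter, under both GC offsets and at 0.05. DESeq2 called 1 and 2 of them. For GO-Rg3-DOX, other family genes went from 4 to 7 under both GC offsets, in the 6 samples of the comparison alone and at 0.05. For GO-Rg3 against GO, members past the test went from 3 to 1 with 10 counts in every sample or with the 6 samples alone, to 5 with the GC offset and to 6 with the offset and the block. Differentially expressed members there went from 2 to 0 with 10 counts in every sample and to 1 with the 6 samples alone, and regulators from 5 to 3 by library totals and to 1 with the 6 samples alone. The cause was not tested, apart from the genes that a filter removes.

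Leaving out 1 sample at a time, members past the test numbered 3 to 4 for GO, 4 to 6 for GO-Rg3-DOX and 1 to 3 for GO-Rg3 against GO, of which 2 in every GO fit, 3 to 4 and 1 to 2 were differentially expressed. Other family genes numbered 2 to 4 for GO, 3 to 4 for GO-Rg3-DOX and 2 in every fit of GO-Rg3 against GO. Caspase pathway genes numbered 4 to 6, 7 to 10 and 2 to 3, and regulators 4 to 6, 12 to 14 and 3 to 6. For GO-Rg3 against untreated, 0 genes of the 4 lists were called in these fits. Of the members' results under all alternatives, 520 kept direction and side of the threshold, 41 newly passed, 22 no longer passed and 49 changed sign.

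The changes of sign concerned small values that had not passed. By library totals, the log2 fold change was -0.0033 for BAX and -0.0019 for BAD after GO, 0.023 for BAK1 after GO-Rg3, -0.32 for BID after GO-Rg3-DOX, and 0.046 for MCL1 and 0.081 for BAD in GO-Rg3 against GO. With the GC offset, BAX (-0.19) and BAD (-0.37) after GO, BCL2L1 (-0.046), BAD (-0.15) and BBC3 (-0.10) after GO-Rg3, BCL2L11 (0.063) after GO-Rg3-DOX, and BAX (0.0098) and BAD (0.23) in GO-Rg3 against GO changed sign. With the offset and the block the values were -0.19, -0.38, -0.046, -0.13, -0.12, 0.057, 0.013 and 0.25 in the same order. BAK1 after GO-Rg3 was 0.031 with RLE size factors and with DESeq2, 0.022 without mitochondrially encoded genes, 0.0026 with 10 counts in every sample and 0.075 with the 6 samples alone. BCL2L11 after GO-Rg3-DOX was 0.028 with RLE size factors and with DESeq2 and 0.00016 with the 6 samples alone, where PMAIP1 after GO-Rg3 was 0.0041. Leaving out a sample changed the sign of BAX (-0.018 to 0.24), BAK1 (-0.13 to 0.029) and BAD (-0.095 to 0.22) after GO. After GO-Rg3 it changed the sign of BCL2L1 (-0.091 to 0.11), BAK1 (-0.15 to 0.13), BAD (-0.20 to 0.29), BBC3 (-0.13 to 0.44), PMAIP1 (-0.14 to 0.012) and BIK (-0.012 to 0.55). BCL2L11 after GO-Rg3-DOX ran from -0.13 to 0.075, and BAK1 (-0.12 to 0.16) and BAD (-0.31 to 0.17) did so in GO-Rg3 against GO. Low counts limit BAD, BBC3 and BIK most, whose SE of the log2 fold change reached 0.28, 0.42 and 0.42.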
